A study of Mus musculus with 10 samples.

Results

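The Hox genes of all 4 clusters, their Meis and Pbx cofactors and a set of limb position genes were followed in stromal cells sorted from mouse bone. Members were rows of the gene table whose symbol was a Hox gene (Hoxa, Hoxb, Hoxc or Hoxd with a number) or a gene of the Meis, Pbx and Pitx families, or one of Tbx4, Tbx5, Shox2, Hand1, Hand2, Lhx2, Lhx9, Msx1, Msx2, Lmx1b and Dlx3 to Dlx6. The rule found 38 members among 15078 genes. The annotation holds 62 such symbols, and the other 24 were not analysed here. Of the 38 members, 19 were Hox genes, 7 were cofactors, 7 were limb identity genes and 5 belonged to the Msx and Dlx families.

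RNA was sequenced from CD45-Ter119-CD31-CD51+CD200+ cells in 10 libraries. BM-MSCs (n = 3) came from the bone marrow and P-SSCs (n = 3) from the periosteum of wild-type mice at steady state without treatment, and the labels describe these libraries as re-analysed from another series. Graft BM-MSCs (n = 4) came from the marrow of femurs of Postn Cre-ER;tdTomato mice, collected 5 months after they had been implanted under the skin of wild-type recipients that received tamoxifen, and were also Tomato+. Postn (periostin) drives the recombinase in these femurs, and it is used by periosteal cells and by other stromal cells, so the Tomato label alone does not identify a periosteal origin. Replicates are described as holding RNA from distinct mice, and a label that joins 2 numbers (BM-MSC 2+4, P-SSC 2+5) marks a library made from a pair of mice. The methods give an age of 6 to 12 weeks as the general rule for mice, without an age for each library. The bones behind the steady-state libraries are not given in the sources used here.

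Hox genes encode homeodomain transcription factors that lie in 4 clusters, and the order of genes along a cluster follows their order of use along the body axis and, for the posterior groups, along the limb. Adult stromal cells keep a part of the Hox pattern of the place where they arose. Meis and Pbx proteins bind DNA together with Hox proteins. Tbx5 is the forelimb T-box factor, while Tbx4 and its upstream regulator Pitx1 mark the hindlimb. Dlx5 is a homeodomain factor that drives osteoblast genes.

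The upstream sequences of Hoxa9 and Hoxa10, neighbouring posterior genes of cluster A, are shown because Hoxa10 had the highest Hox level in both marrow groups and Hoxa9 separated BM-MSCs from both other groups. Each run holds the 250 bases before a RefSeq transcription start on GRCm38.p6, on the minus strand and 5′ to 3′, and none of these bases lies in an annotated exon. Capitals mark CCAAT or its reverse complement. Hoxa9 lies at chr6:52227371-52227620, the first start of Hoxa10 at chr6:52240855-52241104 and its second start at chr6:52234940-52235189.
Hoxa9: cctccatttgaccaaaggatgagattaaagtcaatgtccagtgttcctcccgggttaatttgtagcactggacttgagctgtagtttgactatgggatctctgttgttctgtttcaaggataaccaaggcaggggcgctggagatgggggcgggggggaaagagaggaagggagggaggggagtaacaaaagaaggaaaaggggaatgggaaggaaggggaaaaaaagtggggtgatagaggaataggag
Hoxa10 start 1: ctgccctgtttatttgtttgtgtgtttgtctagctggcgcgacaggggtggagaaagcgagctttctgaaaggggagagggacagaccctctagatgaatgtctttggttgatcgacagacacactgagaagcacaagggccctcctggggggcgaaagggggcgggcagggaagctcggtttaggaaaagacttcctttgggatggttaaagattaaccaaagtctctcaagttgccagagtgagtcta
Hoxa10 start 2: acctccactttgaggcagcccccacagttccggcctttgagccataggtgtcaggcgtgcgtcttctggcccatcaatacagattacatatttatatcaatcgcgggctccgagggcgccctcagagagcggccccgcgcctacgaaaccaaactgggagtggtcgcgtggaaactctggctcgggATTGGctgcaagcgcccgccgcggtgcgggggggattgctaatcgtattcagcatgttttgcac
RefSeq sequences were at hand for 18 of the 38 members, with 20 starts. On both strands, TAATTA (the core of many homeodomain sites), TGACAG (Meis) and TGATTNAT (Pbx with Hox) were found in 0 of these 20 windows, and in 4.84%, 15.9% and 2.82% of all 32851 mouse windows of the same length. CCAAT was found in 50% of the members' windows and in 33.8% of all windows. These counts describe letters and not binding.

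Sequencing gave 15415421 to 25223295 reads in genes per library, and 9308 to 13341 genes were detected. Deposited values are reads per gene after division by each library's size factor, and are called normalized counts here. Libraries fell apart in 2 ways before any comparison. Graft libraries listed 22.6% to 38.3% of genes at 0, against 11.5% to 19.0% in steady-state libraries. Genes with over 65% GC were high in the 4 graft libraries and in P-SSC 4 and low in the 3 BM-MSC libraries, P-SSC 1 and P-SSC 2+5. This split is called the GC batch. It cannot be told apart from the group when graft BM-MSCs are compared with BM-MSCs. P-SSCs are the only group with libraries on both sides. A fit with the GC batch as a covariate thus takes the batch effect from P-SSC 4 against the other P-SSC libraries. In that fit graft against P-SSC sets the graft against P-SSC 4 alone. P-SSC against BM-MSC then has the log2 change found without P-SSC 4. The members had GC contents of 38.8% to 65.8% (median 53.9%), and Pitx1 was the 1 member over 65%. Itgav (CD51) and Cd200, which define the sort, had reads in all 10 libraries. Marrow stromal markers (Cxcl12, Lepr, Kitl, Adipoq, Foxc1 and Ebf3) summed to 667905 to 1131720 in both marrow groups and to 4579 to 8883 in P-SSCs, and periosteal fibroblast markers summed to 363387 to 651164 in P-SSCs.

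Among the Hox genes with rows, those of clusters A and C held most of the summed normalized count in all 3 groups. A gene without a row has no value here, so its absence is not read as low use. The table held 7 of 11 genes of cluster A, 9 of 9 of cluster C, 2 of 10 of cluster B and 1 of 9 of cluster D. Per kb of exon, Hoxa10 had the highest level of the Hox genes in BM-MSCs (251 ± 33.4 normalized counts per kb, SD, n = 3) and in graft BM-MSCs (209 ± 65.6, n = 4). In P-SSCs Hoxc10 (221 ± 92.6 per kb, n = 3) and Hoxa10 (197 ± 152) lay within each other's spread. Hoxa7 was next at 159.9 ± 15.6 per kb in BM-MSCs and 140.4 ± 58.3 in P-SSCs. In graft BM-MSCs Hoxc9 (157 ± 89.5 per kb) and Hoxa7 (132 ± 32.5) came next and lay within each other's spread. The summed normalized count of the 19 Hox genes was 2456 to 2753 in BM-MSCs, 1915 to 2733 in P-SSCs and 2506 to 3412 in graft BM-MSCs. All 3 ranges overlapped. In bulk samples, fewer cells that use a gene and less RNA per cell cannot be told apart.

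**Figure D1:**
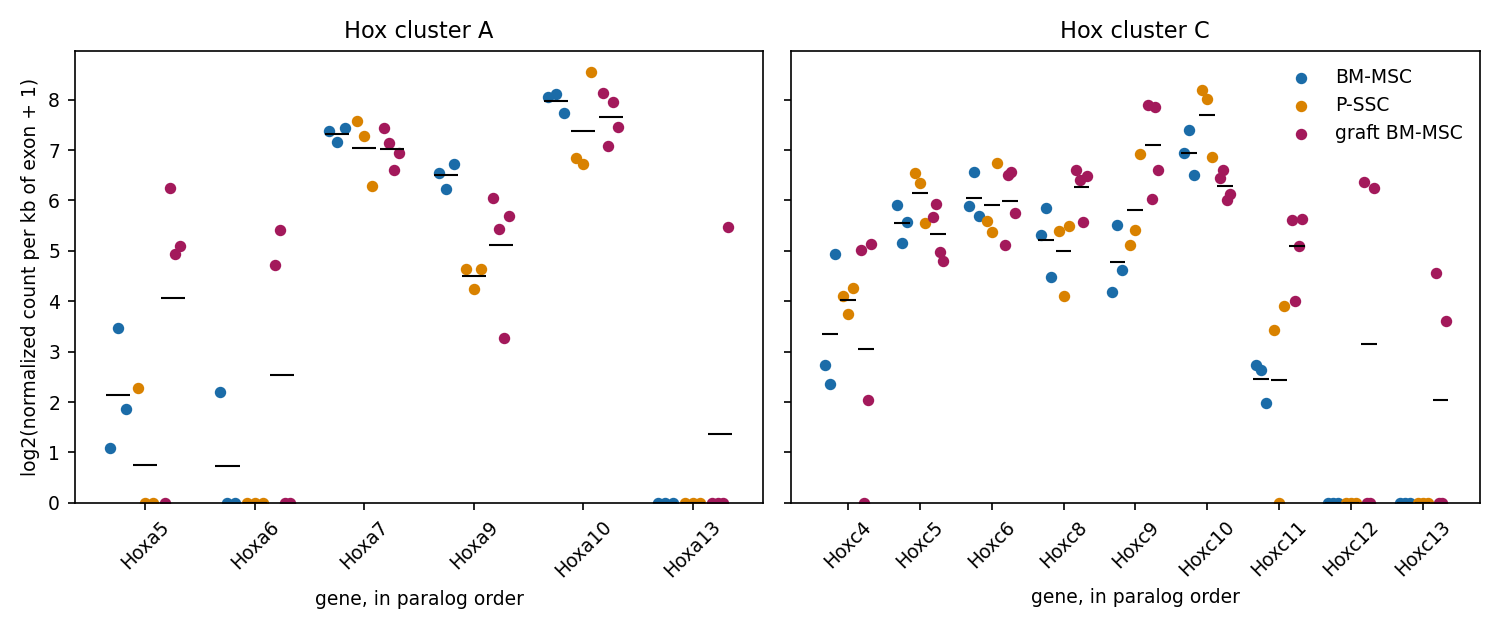
Level of 15 Hox genes of clusters A and C, as log2(normalized count per kb of exon + 1), with 1 point per library, coloured by group, and a black line at the group mean of the log values. Hoxa7, Hoxa10 and Hoxc10 sit high in all 3 groups, while Hoxc12, Hoxc13 and Hoxa13 are at 0 in all 6 steady-state libraries.

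Posterior Hox genes, which in the limb set the level from shoulder or hip to digits, were read per library. Hoxa10 had normalized counts of 864, 902 and 696 in BM-MSCs, of 373, 341 and 1216 in P-SSCs and of 909, 442, 812 and 571 in graft BM-MSCs. P-SSC 4 was the highest of all 10 libraries and the other P-SSC libraries were the lowest, so the groups overlapped. Hoxa9 had 517, 411 and 579.9 in BM-MSCs, 133, 99.4 and 134 in P-SSCs, and 363, 237, 48.3 and 283 in graft BM-MSCs. Every BM-MSC library lay above every library of both other groups. Hoxc10 had 234, 322 and 171 in BM-MSCs, 553, 493 and 221 in P-SSCs, and 164, 183, 121 and 132 in graft BM-MSCs. P-SSCs and BM-MSCs overlapped (log2 change 0.74, limma, adjusted p = 0.676). P-SSCs lay above all graft libraries, and P-SSC 4 was the lowest of the 3. The log2 change of Hoxc10 in graft against P-SSC was -1.40 (limma, adjusted p = 0.101), and it passed without P-SSC 4 (-1.81, limma, adjusted p = 0.0279), as did Hoxb2 (4.97, limma, adjusted p = 0.0225). P-SSC 4 was the P-SSC library nearest the graft for both genes, so leaving it out favours a pass.

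Hoxc9 had 41.8, 109 and 57.2 in BM-MSCs, 82.1, 101 and 291 in P-SSCs, and 575, 155, 559.9 and 235 in graft BM-MSCs. Hoxc11 had 11.5, 10.55 and 5.92 in BM-MSCs, 19.7, 0 and 28.1 in P-SSCs, and 97.2, 30.4, 67.5 and 97.5 in graft BM-MSCs. Graft libraries lay above BM-MSCs for both genes, and P-SSC 4 was the highest P-SSC library for both. The most distal genes had reads in some graft libraries and in 0 of the 6 steady-state libraries. Hoxc12 was at 0 in all steady-state libraries and at 84.2, 0, 0 and 77.7 in the graft libraries, and Hoxc13 was likewise at 0 and at 55.9, 0, 0 and 27.6. Hoxa13, the digit-forming group of cluster A, was found in graft BM-MSC 4 alone (108). A count of 0 allows up to 3 reads, a floor of 0.119 to 0.195 ppm of a library's reads that covers counting error only. Against that floor the mean of Hoxc12 in graft BM-MSCs was at least 12.3-fold higher than in P-SSCs and at least 13.1-fold higher than in BM-MSCs, while neither difference passed the test (limma, adjusted p = 0.206 and 0.251). Under quantile normalization Hoxc12 passed against P-SSCs (log2 change 3.72, limma, adjusted p = 0.0378). Hoxc12 reached the mean needed for testing through graft libraries alone, so a positive graft change follows from that filter. The pass under quantile normalization is therefore no support for a difference.

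In the steady-state comparison, which asks how position genes differ between the outside and the inside of the bone, Dlx5 was lower and Tbx5 higher in P-SSCs than in BM-MSCs. The 2 members called were 5.71% of the 35 members with a mean of at least 10, against 9.15% of all 13644 genes tested (4.57% higher and 4.58% lower). Dlx5 (chromosome 6, 6877805 to 6882085, minus strand, GRCm38) had normalized counts of 1505, 2162 and 1702 in BM-MSCs and of 356, 270.1 and 340.2 in P-SSCs. The groups were far apart, and P-SSC 4 lay within the other P-SSC libraries. The log2 change was -2.46 (SE 0.35, limma, adjusted p = 0.00112), which is 5.52-fold, and it was -2.51 within the 5 libraries of the GC batch with GC-rich genes low (adjusted p = 0.00505).

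Tbx5 (chromosome 5, 119832668 to 119885219, plus strand) had 7.31, 0 and 0 in BM-MSCs and 190.1, 386 and 193 in P-SSCs. These values stand for 0 to 7 reads in the marrow libraries and 183 to 303 reads in the periosteal libraries. Tbx5 reached the mean needed for testing through P-SSCs, so the direction of its change follows in part from that filter. The log2 change of the value + 1 was 6.91 (SE 1.76, limma, adjusted p = 0.0332), with 7.07 within the GC batch (adjusted p = 0.0249). The call was lost without BM-MSC 2+4, BM-MSC 3 or any 1 of the P-SSC libraries (limma, adjusted p = 0.0715 to 0.133), in edgeR (adjusted p = 0.318), with a pseudocount of 0.1 (limma, adjusted p = 0.0855) and with the GC batch as a covariate (limma, adjusted p = 0.0765). With that covariate the log2 change was the same as without P-SSC 4 (7.07), so it is no separate check. Its hindlimb relative Tbx4 ran alongside at 2.09, 0 and 32.5 in BM-MSCs and 129.8, 66.2 and 207 in P-SSCs, with no overlap, but did not pass the test (4.70, SE 2.34, limma, adjusted p = 0.338). Pitx1 had 21.9, 41.1 and 29.6 against 35.3, 64.97 and 237, and these values overlapped.

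Of the 35 members, 10 had no overlap between P-SSCs and BM-MSCs (28.6%, against 30.9% of all genes tested), 3 higher and 7 lower in P-SSCs. The higher ones were Tbx4, Tbx5 and Msx1. Among the lower ones were Hoxa9, Meis3, Pbx2, Dlx3, Dlx5 and Dlx6. Hoxa9 had a log2 change of -2.03 (SE 0.76, limma, adjusted p = 0.153), which passed without graft BM-MSC 3 (limma, adjusted p = 0.0194), in limma on these 2 groups alone (adjusted p = 0.0102) and in DESeq2 (adjusted p = 0.0340). The SD of its log2 values was 1.30 in the graft, 0.25 in BM-MSCs and 0.24 in P-SSCs, and graft BM-MSC 3 was the lowest graft library. Leaving out that library or the whole graft group narrows the shared spread and so favours a pass. Within the GC batch alone, 2 P-SSC against 3 BM-MSC libraries gave 7 members called in limma, 1 higher (Tbx5) and 6 lower (Hoxa9, Hoxa10, Meis3, Pbx2 and Dlx5 among them). That is 7 of 35 members, beside 2040 of all 13644 genes tested. Pbx4 passed only without BM-MSC 3, the 1 marrow library with Pbx4 reads (log2 change 5.40 without it, against 3.39 with it), and leaving that library out favours a pass.

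**Figure D2:**
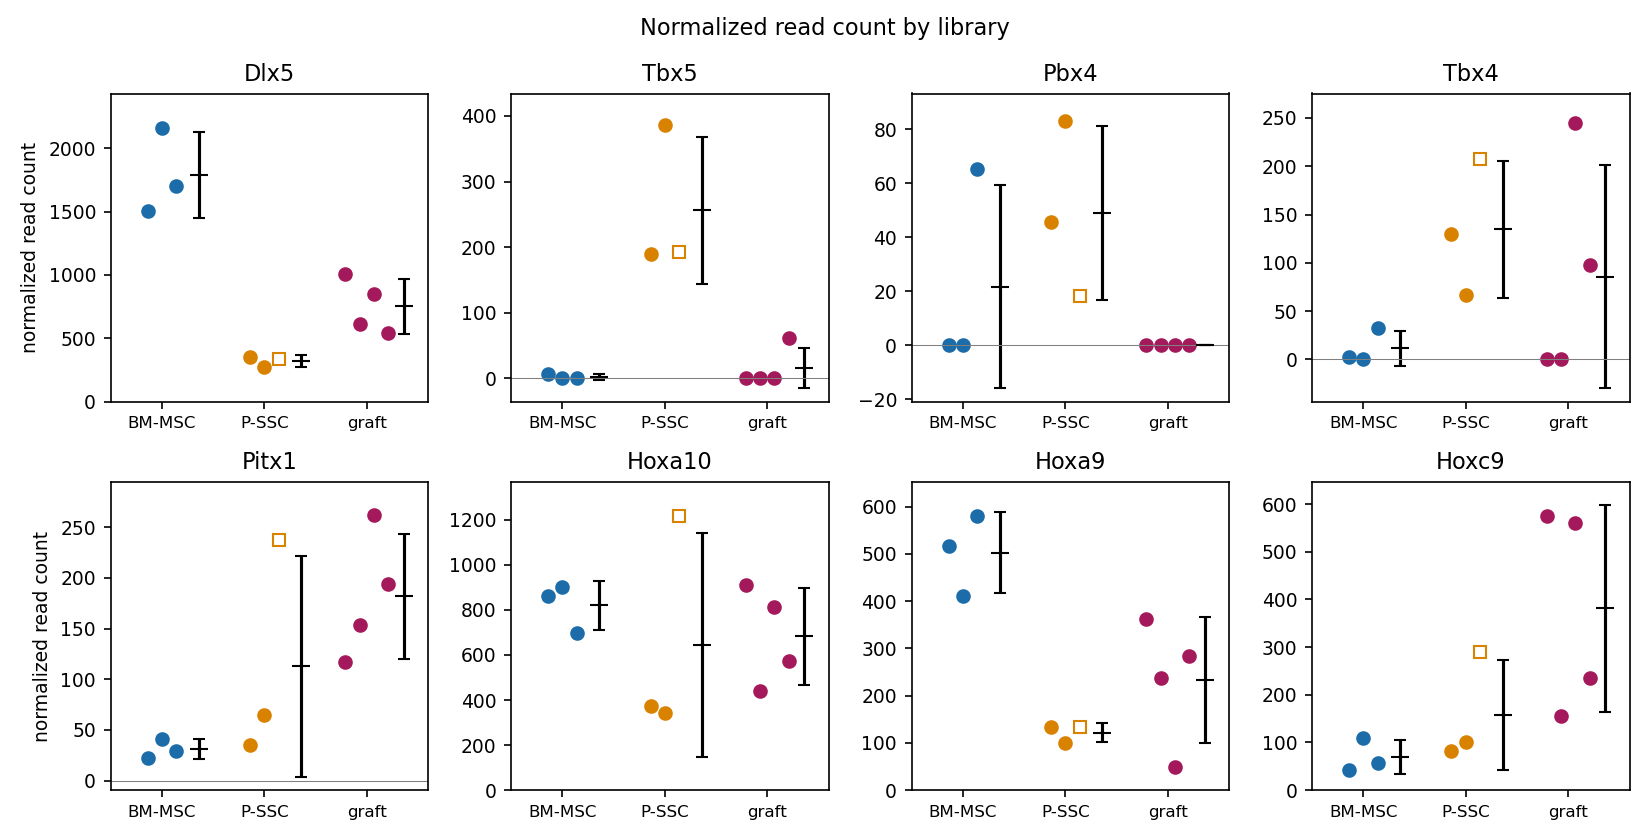
Normalized read count of 8 members in each of the 10 libraries, with the group mean ± SD in black beside the points. The open square is P-SSC 4, which has its GC-rich genes high as the graft libraries do. Dlx5 falls into 3 separate levels, Tbx5 is high in all 3 P-SSC libraries, and P-SSC 4 is nearer to the graft libraries than the other P-SSC libraries are for Pitx1 and Hoxc9.

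Graft BM-MSCs, marrow cells that in this design may descend from the periosteum, differed from P-SSCs in 3 of the 35 members. Tbx5 and Pbx4 were lower in the graft and Dlx5 was higher. These calls were 8.57% of the members, against 18.1% of all genes tested (6.08% higher and 12% lower), and 6 members (17.1%) had no overlap, against 26.6% of all genes. Tbx5 was at 0, 0, 0 and 61.3 in the 4 graft libraries, each below the lowest P-SSC library. The log2 change was -6.43 (SE 1.65, limma, adjusted p = 0.0215). Its direction follows in part from the filter, which Tbx5 passed through P-SSCs. The call was lost without P-SSC 1 (adjusted p = 0.0610) or P-SSC 2+5 (0.0705) in limma, in edgeR (adjusted p = 0.336), and in limma with only the 2 groups compared (adjusted p = 0.0627) or with the GC batch as a covariate (adjusted p = 0.230). That covariate sets the graft against P-SSC 4 alone. Tbx4 had 0, 0, 245 and 97.5 in the graft, and these values overlapped those of P-SSCs (log2 change -3.29, SE 2.19, limma, adjusted p = 0.328).

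Pbx4 (chromosome 8, 69832491 to 69872292, plus strand), a Hox cofactor of the TALE class, was at 0 in all 4 graft libraries and at 45.7, 82.8 and 18.4 in P-SSCs. The P-SSC mean was at least 19.9-fold higher than the mean floor of 3 reads in the graft libraries (log2 change fitted at -5.40, limma, adjusted p = 0.0262). In BM-MSCs it was at 0, 0 and 65.1. Pbx4 also passed the filter through P-SSCs, so the direction of its change follows in part from the filter. The call was lost without P-SSC 1 (adjusted p = 0.0796) or P-SSC 2+5 (0.0857) in limma, after the GC correction, under quantile normalization or with the GC batch as a covariate (limma, adjusted p = 0.0596, 0.155 and 0.347), and in edgeR (adjusted p = 0.102).

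Dlx5 had 1004 (graft BM-MSC 1), 611, 852 and 540.3 normalized counts in the graft libraries. All 4 lay above the 3 P-SSC libraries and below the 3 BM-MSC libraries. Against P-SSCs the log2 change was 1.19 (SE 0.33, limma, adjusted p = 0.0320), which is 2.28-fold. Leaving out graft BM-MSC 1 or 3, P-SSC 1 or 2+5, or any 1 BM-MSC library moved the adjusted p of limma to between 0.0509 and 0.0952, with log2 changes of 1.03 or more. Median centring, the 2 groups alone and the GC batch as a covariate also lost the call (limma, adjusted p = 0.0734, 0.0727 and 0.224). The GC correction raised the log2 change to 2.18 (limma, adjusted p = 0.00461), while it moved the median of all genes from -0.47 to 0.28.

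The third comparison set graft BM-MSCs against steady-state BM-MSCs, both from marrow, with the GC batch and the group joined. Dlx5 was the 1 member called, lower in the graft, 2.86% of the 35 members against 7.67% of all genes tested (2.61% higher and 5.06% lower). Its log2 change was -1.28 (SE 0.33, limma, adjusted p = 0.0435), which is 2.42-fold. After the GC correction it was -0.35 (limma, adjusted p = 0.674) while the median of all genes moved from -0.53 to 0.23, and without graft BM-MSC 2 or 4, P-SSC 1 or any 1 BM-MSC library it was -1.13 to -1.39 (limma, adjusted p = 0.0573 to 0.183). The adjusted p of edgeR was 0.0696 and that of DESeq2 was 0.00250.

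Without overlap between the graft and BM-MSCs were 8 members (22.9%, against 25.0% of all genes), with Hoxb2, Hoxc9, Hoxc11, Pitx1 and Shox2 above and 3 members, Hoxa9 and Dlx5 among them, below. Pitx1, the hindlimb determinant, had 117, 153, 262 and 194 in the graft (5.66-fold on the log2(value + 1) scale, limma, adjusted p = 0.118). Shox2, which shapes the proximal limb segment, had 366, 71.7, 733 and 209 in the graft, 48.0, 40.1 and 67.1 in BM-MSCs and 40.5, 26.8 and 315 in P-SSCs (graft against BM-MSC 2.30, SE 1.08, limma, adjusted p = 0.214). DESeq2 called both, with log2 changes of 2.55 for Pitx1 and 2.73 for Shox2 (DESeq2, adjusted p = 0.0137 and 0.0461). The change of Hoxc9 was 2.35 (SE 0.78, limma, adjusted p = 0.0973), and it passed in DESeq2 (2.45, adjusted p = 0.0106) and after the GC correction (3.27, limma, adjusted p = 0.0246).

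**Figure D3:**
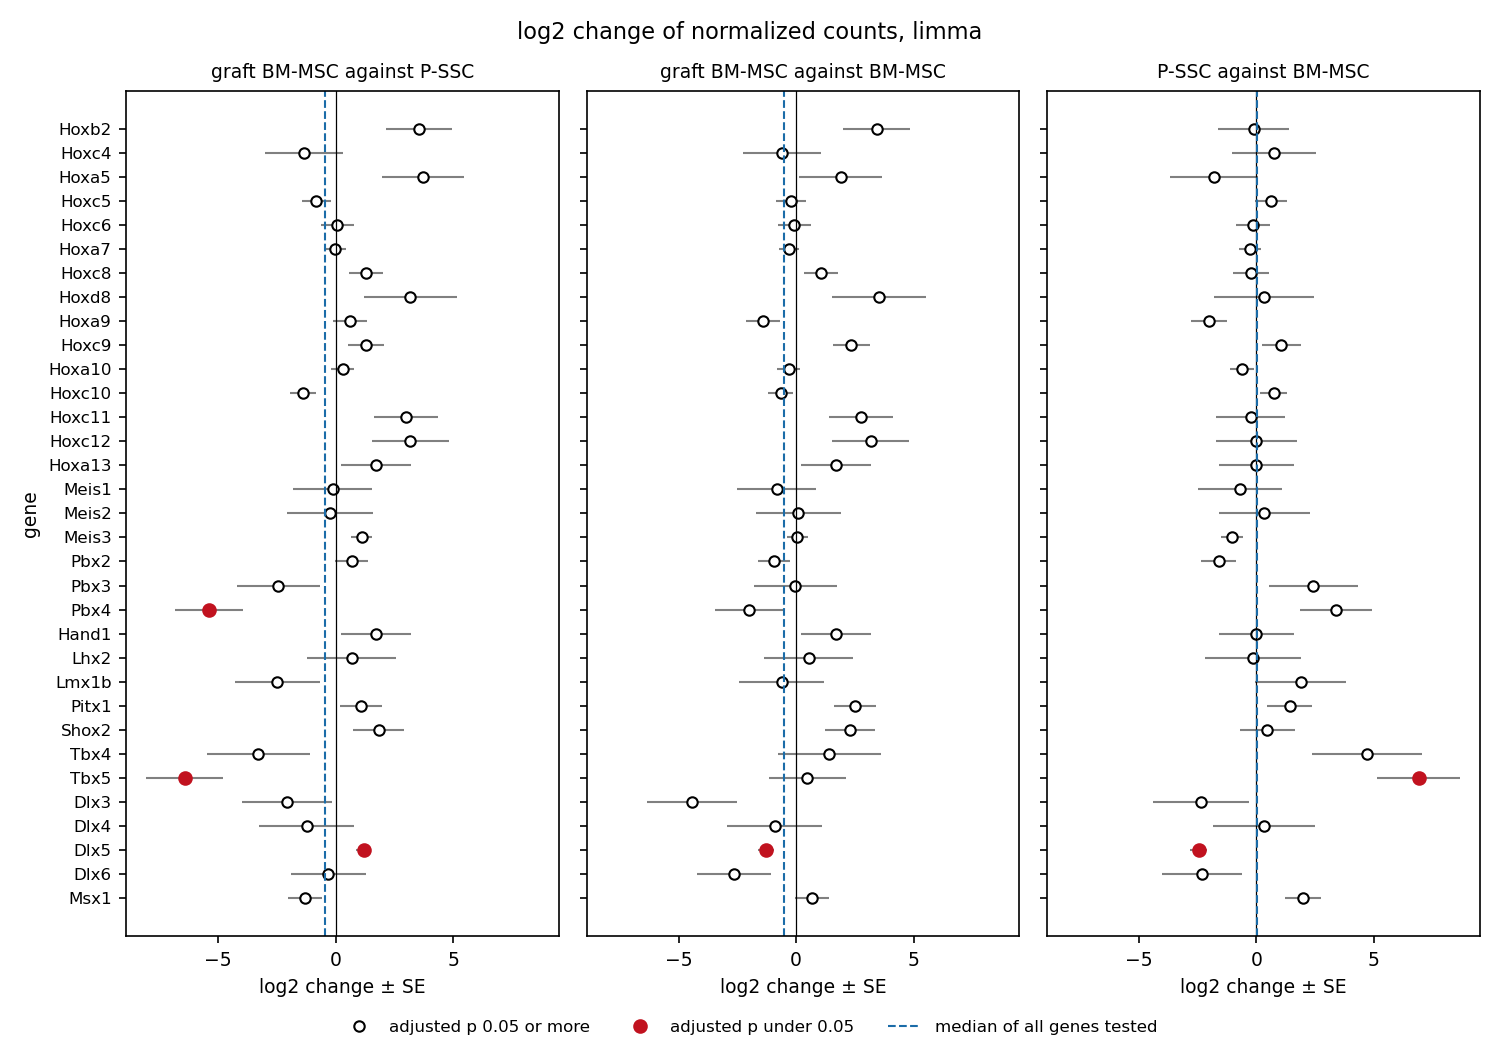
log2 change ± SE (limma, log2(normalized count + 1)) of 33 of the 35 members tested, in the 3 comparisons, with the median of all genes tested as a dashed line. Filled red points passed an adjusted p of 0.05, and they are Dlx5 in every panel, Tbx5 in both panels with P-SSCs and Pbx4 in graft BM-MSC against P-SSC.

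The 5 members that were higher in all 5 libraries of the GC batch with GC-rich genes high than in all 5 others were Hoxb2, Hoxc9, Hoxc11, Pitx1 and Shox2, which is 14.3% of the members against 6.67% of all genes tested. All graft libraries are in the high set and all BM-MSC libraries in the low set. These 5 members therefore lie above BM-MSCs in the graft by construction, and no other tested member did. Pitx1 is also 1 of the 51 genes over 65% GC that defined the split, so its place among the 5 is circular. P-SSC 4 lay above both other P-SSC libraries in 21 of the 35 members, against 37.2% of all genes tested, and below both in 5 (14.3%, against 36.3%). Msx1, a factor of undifferentiated limb mesenchyme, had 486 and 457 in P-SSC 1 and 2+5 and 2636 in P-SSC 4. Shox2 was 315 there against 40.5 and 26.8, and Hoxa10 1216 against 373 and 341. Hoxa7 (220.0 against 548 and 443) and Hoxc10 (221 against 553 and 493) were lower in P-SSC 4. What sets this library apart was not tested.

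**Figure D4:**
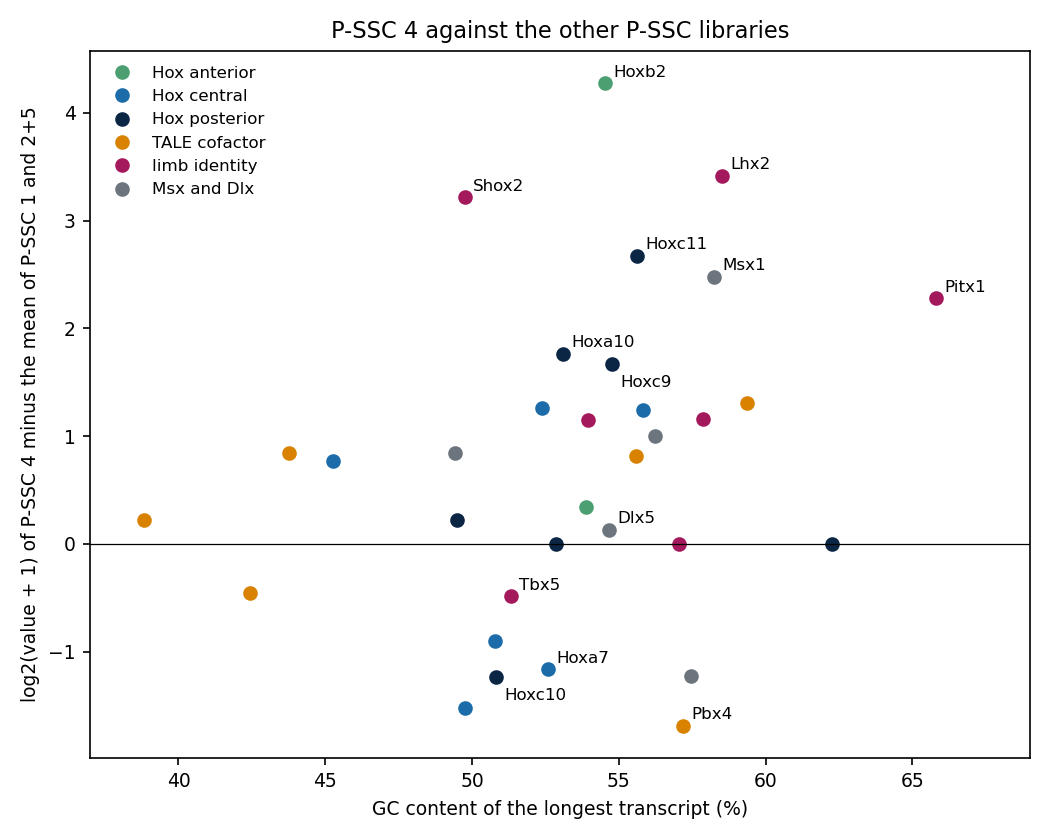
Difference in log2(normalized count + 1) between P-SSC 4 and the mean of P-SSC 1 and 2+5 for 33 of the 35 members tested, against the GC content of the longest transcript, coloured by role. P-SSC 4 was above both other libraries for 19 of the members plotted, and the differences of Tbx5 (-0.49) and Dlx5 (0.13) were within them.

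By role, the 16 Hox genes tested held 0 calls in each of the 3 comparisons by limma. Over all genes tested, 18.1%, 7.67% and 9.15% were called in graft against P-SSC, graft against BM-MSC and P-SSC against BM-MSC. At an unadjusted p under 0.05, 2, 3 and 2 of the Hox genes passed in that order, against 32.8%, 25.5% and 18.7% of all genes. edgeR also called 0 in each (11.2%, 2.32% and 4.54% of all genes). DESeq2 called 1 in each, Hoxc10, Hoxc9 and Hoxa9 in that order (21.3%, 14.3% and 11.1% of all genes). Scaling changed these counts. Under quantile normalization limma called Hoxb2, Hoxc11 and Hoxc12 higher in graft against P-SSC and Hoxb2 and Hoxc11 higher in graft against BM-MSC, and after the GC correction it called Hoxb2 and Hoxc9 higher, 1 in each of these comparisons. The median log2 change of the 16 Hox genes was 0.95 in graft against P-SSC (all genes -0.47), 0.50 in graft against BM-MSC (all genes -0.53) and -0.13 in P-SSC against BM-MSC (all genes 0.0022). Hoxc12 and Hoxa13 passed the filter on low values through graft libraries alone, so their positive graft changes follow from the filter, and no median is given for the posterior genes. Hoxb2, Hoxa5 and Hoxd8 had means under 10 in both steady-state groups, so they also passed the filter through the graft. This limits the calls of Hoxb2 and Hoxc12 above. The medians of the 16 genes, the central genes and the anterior genes include some of these and are descriptions only. The 6 central genes had medians of 0.68, 0.50 and -0.18, and the 3 anterior genes of -0.25, -0.59 and -0.12. Hoxa6, Hoxb6 and Hoxc13 were under the mean of 10 and were not tested. The highest value of Hoxa6 was 36.3 and that of Hoxb6 was 71.6, both in graft libraries.

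Among the central genes, Hoxc5, Hoxc6, Hoxa7 and Hoxc8 had reads in all 10 libraries, with normalized counts of 45.9 to 548. Hoxa5 reached 139.98 in graft BM-MSC 2 and was at 19.0 or below in all 6 steady-state libraries. Hoxd8, the 1 gene of cluster D, had 0, 235, 108 and 154 in the graft and at most 12.7 elsewhere. Neither passed against P-SSC (log2 changes 3.72 and 3.18, limma, adjusted p = 0.170 and 0.298). Without graft BM-MSC 1, which was at 0 for both, both passed (5.30 and 5.01, limma, adjusted p = 0.0217 and 0.0425). Leaving out the library at 0 favours a pass, so these values are no support. Means in BM-MSCs and P-SSCs were 8.67 and 2.42 for Hoxa5 and 4.89 and 6.83 for Hoxd8. Both genes thus reached the mean of 10 through the graft. Hoxc5 overlaps Hoxc6, Hoxc8, Hoxc9 and Hoxc10 in the annotation on the same strand, and it is not known how reads in the shared stretch were assigned. The strand setting of the counting is not given in the sources used here, so reads of a gene and of an antisense partner cannot be told apart.

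Of the 7 cofactors, Pbx4 in graft against P-SSC was the 1 call. Meis3 had the highest level per kb of them, at 286 ± 26.1 in BM-MSCs (n = 3), 154 ± 88.5 in P-SSCs (n = 3) and 314 ± 121 in graft BM-MSCs (n = 4). Its log2 change in P-SSC against BM-MSC was -1.04 (SE 0.48, limma, adjusted p = 0.273), and in graft against P-SSC 1.10 (SE 0.44, limma, adjusted p = 0.114), which passed in limma without P-SSC 4 (adjusted p = 0.0234) and after the GC correction (adjusted p = 0.0165). P-SSC 4 was the P-SSC library nearest the graft for Meis3, so leaving it out favours a pass. Meis1 and Meis2 had reads in all 10 libraries but were at 1.73 in graft BM-MSC 4 and 0.843 in graft BM-MSC 2, where the other 3 graft libraries held 321 to 922 and 362 to 677. Of the limb identity genes, Hand1 was found in graft BM-MSC 3 alone (109.8), Lhx2 reached 153 in graft BM-MSC 4 and at most 13.6 elsewhere, and Lmx1b, which sets dorsal limb identity, ranged from 0 to 97.5. Of the Dlx genes beside Dlx5, Dlx6, its neighbour on chromosome 6, had 76.2, 48.5 and 73.0 in BM-MSCs, 5.19, 17.8 and 18.4 in P-SSCs and 19.2, 116, 0 and 4.32 in the graft. Dlx3 ranged from 0 to 421 and Dlx4 from 0 to 179.5.

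Members were at 0 in 25.0% of graft values (35 of 140), 19.0% of BM-MSC values and 18.1% of P-SSC values, against 23.8%, 8.61% and 9.98% of all genes tested. Pbx4 was the 1 tested member at 0 in all 4 graft libraries. The median SD of log2 values within a group was 1.52 for members and 1.12 for all genes in graft BM-MSCs, 0.46 and 0.50 in BM-MSCs, and 0.81 and 0.66 in P-SSCs. Replicates of the graft differed more from each other than BM-MSC replicates did, for members and for all genes.

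Osteoblast markers (Bglap, Ibsp, Sp7, Dmp1 and Runx2) summed to 198115 to 233841 in BM-MSCs, 48335 to 68306 in graft BM-MSCs and 4241 to 18072 in P-SSCs, the order of the Dlx5 levels, with all 5 above 0 in every group. Runx2 alone was highest in the graft (823 to 1868, against 419.7 to 697 in BM-MSCs). Their part in the Dlx5 result was not tested. Tendon markers summed to 4135 to 6867 in P-SSCs, 89.8 to 147 in BM-MSCs and 0 to 347 in the graft. Tnmd made up most of the P-SSC sum (3178 to 6695), while Scx was high in P-SSC 4 (798, against 18.7 and 3.82) and Mkx had 128 to 168 in P-SSCs, 69.04 to 128 in BM-MSCs and 276 in graft BM-MSC 1. Skeletal muscle markers summed to 1177 to 3076 in P-SSCs, 754 to 1105 in BM-MSCs and 302 to 1923 in the graft, with Myod1, Acta1 and Ckm at 0 in both marrow groups. Des alone made up the graft sum and nearly all of the BM-MSC sum (747 to 1105), and had 442 to 1791 in P-SSCs. Pax7, Myf5, Acta1 and Ckm had reads in every P-SSC library, and Pax7 and Myf5 were at 0 in the graft. Of 4 endothelial markers 2 were in the table. Tek had 6869, 4820.2 and 3254 in P-SSCs, at most 1.04 in BM-MSCs and 0 in the graft, while Cdh5 had 2.08, 58.6 and 14.5 in P-SSCs and 0 elsewhere. Chondrocyte markers summed to 33828 to 73989 in BM-MSCs, 703 to 1740.1 in P-SSCs and 656 to 3884 in the graft, with Acan, Col9a1, Matn3 and Cnmd at 0 in all graft libraries. Blood markers summed to 30386 to 95277, 482 to 2799 and 4842 to 56908 in the same order, and Schwann cell markers to 1120 to 1953, 565 to 3814 and 551 to 1562, with 3 of the 4 Schwann cell markers, Sox10 among them, at 0 in all graft libraries. Their parts in the Tbx5, Tbx4 and Pbx4 results were not tested.

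Polycomb and trithorax proteins keep Hox genes silent or active. Of 25 such genes tested, 5 were called in graft against P-SSC (3 higher and 2 lower), 3 in graft against BM-MSC (2 higher and 1 lower) and 0 in P-SSC against BM-MSC (limma). These are 20%, 12% and 0% of the list, against 18.1%, 7.67% and 9.15% of all genes tested, and the first is near the share of all genes. The medians were -0.36, -0.43 and -0.17. In the last comparison 2 had an unadjusted p under 0.05 in limma, against 18.7% of all genes. There edgeR called 0, against 4.54% of all genes, and DESeq2 called 1 (Cbx6), against 11.1% of all genes. In graft against BM-MSC edgeR called 0, against 2.32% of all genes. Bmi1, a core member of the Polycomb complex PRC1, had a mean normalized count of 551 ± 275 (SD, n = 4) in the graft, 44.4 ± 7.68 (n = 3) in BM-MSCs and 47.9 ± 56.9 (n = 3) in P-SSCs, with log2 changes of 4.07 and 3.51 (limma, adjusted p = 0.0107 and 0.0433). Phc2, also of PRC1, rose by 3.18 against P-SSC and 2.68 against BM-MSC (limma, adjusted p = 0.00410 and 0.0247). P-SSC 4 was above both other P-SSC libraries for Bmi1 (113 against 18.7 and 11.5) and Phc2 (874 against 185 and 144). Cbx6 and Ezh1 had log2 changes of -1.72 and -1.59 in graft against P-SSC (limma, adjusted p = 0.0206 and 0.0202), and Rbbp4 of -0.93 against BM-MSC (limma, adjusted p = 0.0391).

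Among 27 other patterning factors tested, 5 were called in graft against P-SSC and 4 in graft against BM-MSC, all higher in the graft, and 1 in P-SSC against BM-MSC (limma). These are 18.5%, 14.8% and 3.7% of the list, against 18.1%, 7.67% and 9.15% of all genes tested. The first is near the share of all genes. In the comparisons with the graft, 6.08% and 2.61% of all genes were called higher and 12% and 5.06% lower. The list was chosen with earlier results of these data known, so its shares are descriptions only. edgeR called 3, 0 and 0 (11.1%, 0% and 0%, against 11.2%, 2.32% and 4.54% of all genes). At an unadjusted p under 0.05 edgeR had 8, 11 and 7, against 25.9%, 21.4% and 16.5% of all genes. DESeq2 called 9, 9 and 6 (33.3%, 33.3% and 22.2%, against 21.3%, 14.3% and 11.1% of all genes). The medians were 0.04, 1.53 and 0.68. Foxc1, a forkhead factor of marrow stroma that also stands in the marrow list above, had 4635 ± 1206 normalized counts in the graft (n = 4), 316 ± 67.5 in BM-MSCs (n = 3) and 47.5 ± 69.7 in P-SSCs (n = 3), with log2 changes of 7.81, 3.85 and -3.96 (limma, adjusted p = 0.000196, 0.0269 and 0.0231). Irx5 and Irx3, homeodomain factors of 1 Iroquois cluster, rose by 7.80 and 7.21 against P-SSC (limma, adjusted p = 0.00108 and 0.00897) and by 4.65 and 5.91 against BM-MSC (limma, adjusted p = 0.0394 and 0.0456). Six2 rose by 6.60 against BM-MSC (limma, adjusted p = 0.0193), and Tgif2 by 4.36 against P-SSC (limma, adjusted p = 0.0151). Of the 4 noncoding RNAs of the Hox clusters tested, Hotairm1 was called in graft against P-SSC (5.24, SE 1.09, limma, adjusted p = 0.00732), with 119, 63.2, 127 and 57.0 in the graft and at most 11.5 in the other libraries, and edgeR did not call it. Its means were 7.98 in BM-MSCs and 1.68 in P-SSCs, so it passed the filter on low values through the graft. In both other comparisons limma and edgeR called 0 of the 4, with 1 and 0 at an unadjusted p under 0.05 in each tool, and DESeq2 called 1 and 0. Over all genes tested, limma called 7.67% and 9.15% in these comparisons, edgeR 2.32% and 4.54%, and DESeq2 14.3% and 11.1%.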

How the data were processed

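The deposited signal values are gene read counts that the authors scaled by library size factors in DESeq2. Per the labels and the submitters' processing notes, reads from poly-T selected RNA were trimmed with cutadapt 1.15, aligned with STAR 2.5 and counted with featureCounts of Subread 1.4.6, and DESeq2 1.26.0 was used. The notes name the build GRCm39 while the study's methods name GRCm38, and strand use is not given in the sources used here. Columns were matched to libraries through their names. Values of all 10 libraries were whole multiples of the value of 1 read (tolerance 0.01), so whole reads were recovered for 100% of values. The step of graft BM-MSC 3 is close to 1, so its values nearly equal its reads.

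Gene positions, exon lengths and the GC content of the longest transcript came from GENCODE M21 on GRCm38, where 15052 of 15078 IDs were found. Promoters came from RefSeq (GRCm38.p6).

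Values were analysed as log2(value + 1), and log2 changes are differences between group means of these logs. For low genes they depend on the pseudocount and are not lower bounds. Where a group has libraries at 0, they can exceed the ratio of group means. Tbx5 in graft against P-SSC was fitted at -6.43, with group means of 15.3 and 256 normalized counts, and edgeR gave -3.96. The 13644 genes whose mean over the libraries reached 10 were tested. Some members reached it only through the group where they are high, so the direction of their changes follows in part from the filter. Among them are Hoxb2, Hoxa5, Hoxd8, Hoxc12, Hoxa13, Hand1 and Lhx2 through the graft, and Tbx5 and Pbx4 through P-SSCs. limma 3.58.1 in R 4.3.3 fitted 1 mean per group to all 10 libraries with a trend in the variance (7 residual degrees of freedom), two-sided, with Benjamini-Hochberg adjustment over all genes tested and a threshold of 0.05. The p-values measure the spread between these libraries. The 3 comparisons share libraries. edgeR 4.0.16 (quasi-likelihood) and DESeq2 1.42.0 were run on the recovered reads as alternatives, and the other alternatives were another pseudocount, filter, scaling, threshold or set of libraries, the GC batch as a covariate, a loess correction for GC content and a replicate block. Methods were tested on simulated data. Libraries of a group differed by far more than counting noise (chi-square per degree of freedom of 72.2 or more), so none was counted as a duplicate.

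The GC batch was read from 51 genes over 65% GC against 6033 genes of 50% to 60%. Members and gene lists, including the batch and its alternatives, were chosen with earlier results of these data known. Values were given per library for members called in any comparison, for Hox groups 9 to 13 and for Pitx1, Tbx4, Tbx5 and Shox2, other members by range and counts, and called genes of the lists up to 6 a list by size of change. Other members printed per library were picked after their values were seen. Some genes are not reported here by name.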

Additional observations from a re-analysis of the deposited data

Results flagged for a closer look

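In the graft group, the 1 group of 4 libraries, 8 of the 36 members reported by name had 1 library whose gap to the nearest of the others exceeded the 95% critical value of Dixon's test. Chance flags about 1 group in 20, but in these graft libraries 18.2% of all genes tested exceeded it, against 22.2% of the members, and in 54% of those genes the other 3 libraries were at 0, where the measure takes its highest value by construction. Nothing particular to the members is read from the count. The library was graft BM-MSC 4 for Hoxb6 (71.6 normalized counts), Hoxa13 (108), Lhx2 (153) and Tbx5 (61.3), where the other 3 were at 0, and for Lmx1b (97.5), where the others were at 0 to 2.26. It was graft BM-MSC 3 for Hand1 (109.8), with the other 3 at 0. It was graft BM-MSC 2 for Pbx3 (91.1), where the others were at 0 to 8.63, and for Dlx6 (116), where the others were at 0 to 19.2. In each case the library was the highest. Graft BM-MSC 4 listed 2 of the 35 tested members at 0, against 10 to 12 in the other 3 graft libraries. It also listed the fewest of all genes at 0 among the graft libraries (22.6%). The cause was not tested.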

How the results depend on the processing

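The number of members called depended on the setting, and no log2 change of a called member reversed. In graft against P-SSC 3 members were called, 1 higher and 2 lower, with 5 under quantile normalization (4 higher and 1 lower), 4 after the GC correction (3 higher and 1 lower), 1 with a mean of at least 100, with only the 2 groups compared or in edgeR, and 0 with the GC batch as a covariate or at an adjusted p under 0.01. Of all 13644 genes, quantile normalization called 2488, the GC correction 2555 and the 2 groups alone 1696. The GC batch as a covariate, which sets the graft against P-SSC 4 alone, called 1081 of all genes. An adjusted p under 0.01 left 1332, and a mean of at least 100 gave 2014 of 9546 genes. In graft against BM-MSC 1 was called (Dlx5, lower), with 4 in DESeq2 (3 higher and 1 lower), 2 with a pseudocount of 5, median centring or only the 2 groups compared, 2 others under quantile normalization (Hoxb2 and Hoxc11, both higher), 1 other after the GC correction (Hoxc9, higher), and 0 with no filter, the batch as a covariate, an adjusted p under 0.01 or edgeR. Of all genes, the pseudocount of 5 called 1102, median centring 994 and the 2 groups alone 1493. Quantile normalization called 1023 and the GC correction 1229. With no filter 995 of 15078 genes were called. The GC batch as a covariate called 40 of all genes and an adjusted p under 0.01 left 305, so calls fell for all genes there. In P-SSC against BM-MSC 2 were called, with 7 within the GC batch and 1 with a pseudocount of 0.1, a mean of at least 100, an adjusted p under 0.01 or in edgeR. Within the GC batch 2040 of all 13644 genes were called. The pseudocount of 0.1 called 1153, an adjusted p under 0.01 left 794, and a mean of at least 100 gave 896 of 9546 genes. DESeq2 gave no adjusted p for 5 members, Tbx5 and Msx1 among them. Leaving out 1 library gave 0 to 6, 0 to 2 and 1 to 3 calls in the 3 comparisons, where all genes called were 1583 to 3005, 476 to 1584 and 917 to 1495. Without P-SSC 4 the calls were 6, 2 and 2 (all genes 3005, 1584 and 1203), and without P-SSC 1 or P-SSC 2+5 graft against P-SSC had 0 (all genes 1583 and 1731). With an adjusted p under 0.05, all genes called were 2464, 1046 and 1248 in limma, 1531, 316 and 619 in edgeR and 2908, 1947 and 1515 in DESeq2, and the split of higher to lower calls in graft against P-SSC was 830 to 1634, against 1247 to 1241 under quantile normalization and 1569 to 986 after the GC correction. In graft against BM-MSC these splits were 356 to 690, 588 to 435 and 877 to 352. With the replicate block 0 members were called in each comparison, with and without the GC correction, and all genes called fell to 269, 3 and 54. Same-numbered libraries deviated with correlations of -0.0192 to 0.0295, so the numbers were not taken to pair the samples, and 2 residual degrees of freedom remained. The causes of these differences were not tested. Depth limits low members: 1 read was worth 0.565 to 1.27 normalized counts.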
